A study of Homo sapiens with 12 samples.

Results

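The genes described here form the negative feedback and the transcriptional output of the RAS-ERK pathway. They are 3 dual specificity phosphatases (DUSP4, DUSP5, DUSP6), 2 Sprouty proteins (SPRY2, SPRY4), 2 SPRED proteins (SPRED1, SPRED2) and 3 ETS transcription factors of the PEA3 family (ETV1, ETV4, ETV5). The 10 genes were chosen by symbol for this role, with earlier results of these data known. All 10 were found among the 20738 gene IDs of the expression table. They were followed in 12 RNA-seq libraries of 2 HPV+ HNSCC lines, UM-SCC-47 and UPCI-SCC-090, each line being cells of a single tumor grown in culture. Each line was given 500 nM JQ1 or 0.1% DMSO for 72 h, with 3 libraries per group. JQ1 blocks the bromodomains of the BET proteins, which bind acetylated histones, and DMSO is its solvent. The study asked what BET inhibition does to genes near super-enhancers in these cancers, and neither line carried an added transgene or deletion that the labels name.

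ERK is the last kinase of a chain that runs from receptor tyrosine kinases over RAS, RAF and MEK. Active ERK switches on a small group of genes within minutes to hours, and most products of that group then act back on the chain. DUSP proteins remove the phosphates that activate ERK, Sprouty proteins damp signaling near the receptors, and SPRED proteins bring neurofibromin to the membrane, where it turns RAS off. The PEA3 factors carry the signal on to further genes, and in many tissues ETV1, ETV4 and ETV5 are held down by the repressor CIC until ERK inactivates it. In squamous epithelium the chain is driven mainly by EGFR and the FGF receptors, and the mRNA of DUSP6, SPRY4 and ETV4 is widely used to read its activity.

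Promoter sequence bears on how these genes could move together, so 3 promoters are shown, one from each family for which RefSeq held an entry. RefSeq promoters were matched for 6 of the 10 genes, in 14 windows (GRCh38.p14): SPRED2, SPRY4, ETV1, DUSP6, SPRY2 and SPRED1. Each sequence below is the 250 bases before a transcription start, 5′ to 3′ on the strand of the gene, and all 3 genes lie on the minus strand. Capitals mark a motif. The motifs searched on both strands were the ETS core CCGGAA, 2 octamers that CIC binds (TGAATGAA and TGAATGGA), and the AP-1 site TGANTCA. Other forms of these sites were not searched.
ETV1, chr7:13991426-13991675: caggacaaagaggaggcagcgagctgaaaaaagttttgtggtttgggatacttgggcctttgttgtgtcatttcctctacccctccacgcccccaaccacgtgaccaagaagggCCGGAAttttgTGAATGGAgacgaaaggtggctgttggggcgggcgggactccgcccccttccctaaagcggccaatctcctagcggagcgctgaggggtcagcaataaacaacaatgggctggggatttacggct
SPRY2, chr13:80341127-80341376: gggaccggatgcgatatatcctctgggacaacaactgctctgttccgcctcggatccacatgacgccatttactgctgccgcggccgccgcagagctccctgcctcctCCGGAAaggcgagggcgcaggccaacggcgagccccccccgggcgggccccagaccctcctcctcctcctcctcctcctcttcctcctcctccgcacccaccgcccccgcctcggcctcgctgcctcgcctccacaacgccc
DUSP6, chr12:89352502-89352751: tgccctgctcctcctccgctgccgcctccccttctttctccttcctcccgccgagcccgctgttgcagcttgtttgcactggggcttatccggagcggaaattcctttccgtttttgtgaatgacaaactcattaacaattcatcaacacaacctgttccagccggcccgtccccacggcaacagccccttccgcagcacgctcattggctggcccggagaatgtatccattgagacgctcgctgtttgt
The ETV1 window held the ETS core 136 bases and the CIC octamer TGAATGGA 125 bases before the start. The SPRY2 window held the ETS core 142 bases before the start, and the DUSP6 window held none of these motifs. The windows shown for ETV1 and SPRY2 are thus ones with a motif, and other windows of both genes held none. All windows of SPRED1, SPRED2 and SPRY4, which are not shown, held none. Over the 14 windows of the 6 genes, 4 held the ETS core (3 of ETV1, 1 of SPRY2), but 2 of those ETV1 windows overlap almost wholly and hold the same copy. Of the 14, 1 held TGAATGGA (ETV1), and 0 held TGAATGAA or the AP-1 site. Of all 35116 RefSeq promoter windows of this length, 14.5% held the ETS core, 0.832% held TGAATGGA, 1.4% held TGAATGAA and 6.57% held the AP-1 site. A match is a run of letters and not a measured binding site.

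Libraries held 20349275 to 30788657 estimated counts. The 8 markers used for squamous carcinoma cells were KRT5, KRT14, KRT17, TP63, KRT8, KRT18, EPCAM and CDH1. All 8 averaged 1 CPM (counts per 1000000 counts, scaled by TMM) or more in both lines with DMSO. Their sum was 9313 to 10767 CPM in UM-SCC-47 and 3217 to 3693 CPM in UPCI-SCC-090. With JQ1 that sum was 37723 to 56036 CPM and 3355 to 4619 CPM. All 8 again averaged 1 CPM or more in UM-SCC-47, but 7 did in UPCI-SCC-090, where KRT14 averaged 0.87 CPM. In UM-SCC-47 the larger sum lay mainly in KRT8 (mean 5527 CPM with DMSO, 27842 CPM with JQ1) and KRT18 (2226 and 15490 CPM), keratins of simple epithelia, named here after their values were seen. KRT14 and KRT17 rose as well (log2 1.12 and 2.33, adjusted p = 0.000653 and 0.000394). TP63 and KRT5 fell by 3.02 and 1.83 on the log2 scale (adjusted p = 0.000553 and 0.000456). In UPCI-SCC-090 with DMSO the sum lay mainly in KRT8 (mean 1377 CPM), CDH1 (908 CPM) and TP63 (615 CPM). KRT5 and KRT14 averaged 8 and 1.24 CPM there, against 607 and 115 CPM in UM-SCC-47 with DMSO. With JQ1, 0 of the 8 markers passed the test as lower in UPCI-SCC-090, beside 20.4% of all genes tested. Only 1 passed as higher (CDH1), beside 7.67%. TP63 had a mean of 237 CPM with JQ1 there, without overlap of the groups, but did not pass. The part of these changes in the results below was not tested. Summed levels over both lines were 12.5 to 30.7 CPM with DMSO and 2.8 to 6.61 CPM with JQ1 for the 6 fibroblast markers, and 1.6 to 8.23 and 0.23 to 3.2 CPM for the 4 endothelial markers measured. They were 6.42 to 41.4 and 6.37 to 38 CPM for the 6 leukocyte markers, and the part of such cells was not tested either. In UM-SCC-47 with DMSO these sums lay mainly in COL1A1 (mean 12 CPM), CDH5 (7.17 CPM) and CD68 (37.2 CPM). In UPCI-SCC-090 with DMSO COL1A1 averaged 21.9 CPM and CD68 5.46 CPM. No more than 2 markers of any of these lists averaged 1 CPM or more in a group. Before the results, some libraries stood apart: libraries of 1 group differed in how counts depended on the GC content of a gene. The trend was steepest in UPCI-SCC-090 JQ1 replicate 3 (-0.75 log2 CPM per 10 points of GC), UPCI-SCC-090 DMSO replicate 2 (0.68) and UM-SCC-47 JQ1 replicate 3 (-0.53). Ribosomal protein genes took 4.59% to 6.25% of the counts in UPCI-SCC-090 with DMSO and 11.4% to 12.2% with JQ1, against 6.64% to 7.01% and 6.79% to 9.73% in UM-SCC-47. The labels do not say whether the libraries of a group came from separate cultures, so p-values measure only the spread between these libraries.

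With JQ1, 3 of the 10 genes fell in both lines, beside 13.1% of the 12327 genes tested in both. Rises in both lines numbered 0 of 10 beside 4.68%, and DUSP4 moved in opposite directions, as 1.1% of genes did. In UM-SCC-47, DUSP6, SPRED1, SPRED2, ETV1 and ETV4 fell and DUSP4 rose. In UPCI-SCC-090, DUSP4, DUSP6, SPRY2, SPRY4, SPRED2, ETV4 and ETV5 fell and 0 rose. DUSP6, SPRED2 and ETV4 fell in both lines, and DUSP5 passed the test in neither. All 10 genes passed the filter on low counts in both lines. Calls are at an adjusted p under 0.05 in edgeR's quasi-likelihood test over all genes.

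The 5 lower members of 10 in UM-SCC-47 stand beside 25.5% of the 13440 genes tested, and the 1 higher member beside 16.1%. The 7 lower members of 10 in UPCI-SCC-090 stand beside 20.4% of 13150 genes, and the 0 higher members beside 7.67%. At an unadjusted p under 0.05, again 0 of the 10 were higher in UPCI-SCC-090 with edgeR, and DESeq2 also called 0. DESeq2 called 5 members lower in UPCI-SCC-090, against the 7 of edgeR. Single libraries moved these counts. The lower count in UM-SCC-47 was 3 without DMSO replicate 1, DMSO replicate 3 or JQ1 replicate 1, and the higher count was 3 without JQ1 replicate 3. In UPCI-SCC-090 the lower count was 4 without DMSO replicate 2, DMSO replicate 3 or JQ1 replicate 3, and 3 without JQ1 replicate 1. The median log2 fold change of the 10 genes was -0.65 in UM-SCC-47, where that of all genes was -0.03, and -1.50 in UPCI-SCC-090, where it was -0.14. The 3 DMSO and 3 JQ1 libraries did not overlap in CPM for 8 of the 10 genes in each line, beside 55.3% of all genes tested in UM-SCC-47 and 40.5% in UPCI-SCC-090. The split of calls over all genes moved with the scaling. It was 3431 lower and 2163 higher in UM-SCC-47 (RLE scaling 2846 and 2622, library size alone 4589 and 1456, GC correction 3356 and 3525). In UPCI-SCC-090 it was 2680 lower and 1009 higher (RLE scaling 1755 and 1287, library size alone 3069 and 635, GC correction 3124 and 3338). RLE scaling moved the median of all genes to 0.12 in UM-SCC-47 and to 0.14 in UPCI-SCC-090, and library size alone moved it to -0.28 and -0.38.

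**Figure D1:**
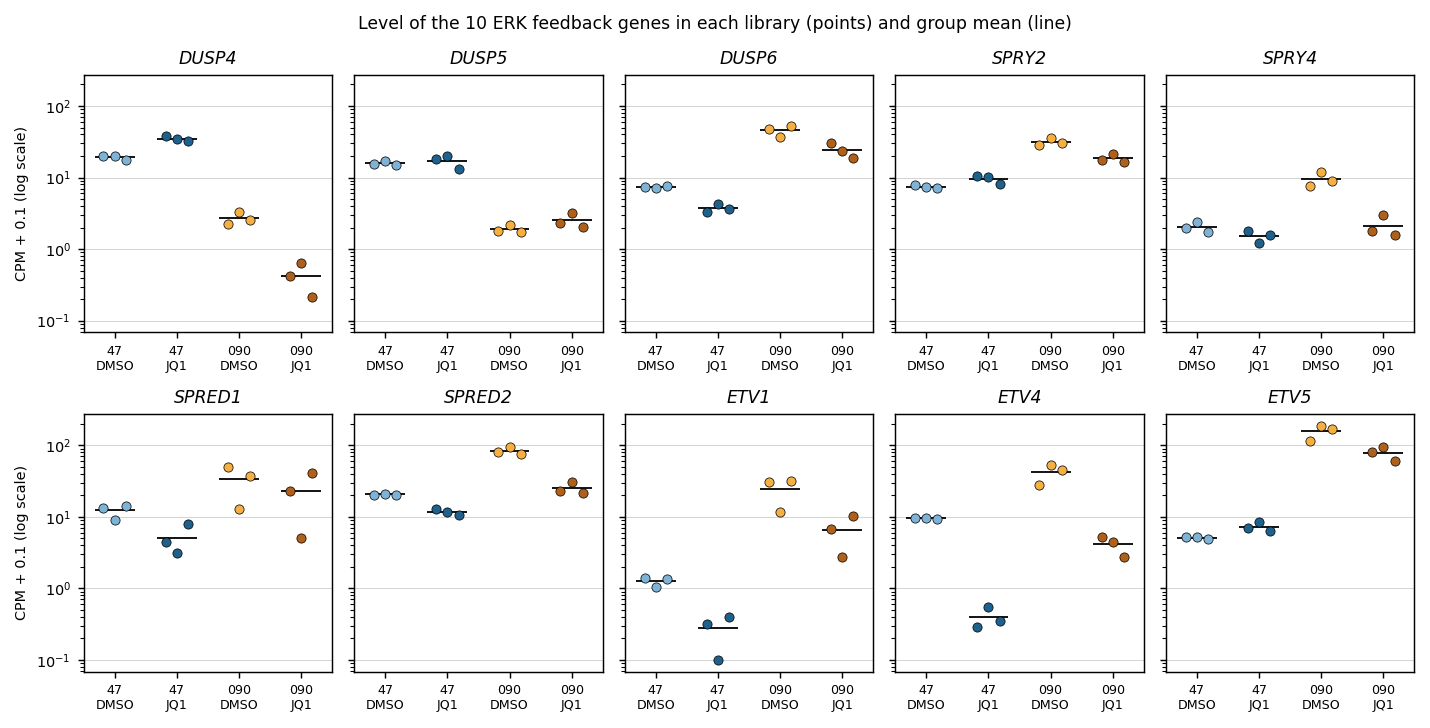
Level of each of the 10 genes in every library, as CPM plus 0.1 on a log axis, with DMSO and JQ1 libraries of UM-SCC-47 (47, blue) and UPCI-SCC-090 (090, orange); points are libraries and lines are means of 3. DUSP4 moved apart in the 2 lines: its mean went from 19.0 to 34.8 CPM in UM-SCC-47, whereas in UPCI-SCC-090 it went from 2.6 to 0.325 CPM, and ETV4 fell in both.

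DUSP6 is the cytoplasmic phosphatase that is most selective for ERK (GRCh37 chromosome 12, 89741012 to 89746278, minus strand). Its level was 7.3, 6.99 and 7.42 CPM in the DMSO libraries of UM-SCC-47 and 3.16, 4.16 and 3.59 CPM in the JQ1 libraries. In UPCI-SCC-090 it was 48.1, 36.9 and 52.5 CPM with DMSO and 30.3, 23.4 and 18.7 CPM with JQ1. The groups did not overlap in either line. CPM values are on 1 scale over the 12 libraries, and they are shares of the RNA of a culture, so fewer expressing cells and less RNA per cell cannot be told apart. The log2 fold change was -1.01 (SE 0.18, adjusted p = 0.0056) in UM-SCC-47. It was -1.05 (SE 0.29, adjusted p = 0.0401) in UPCI-SCC-090, from a DMSO level that was 6.33-fold higher. The call in UPCI-SCC-090 held in 5 of 16 alternative settings, with adjusted p from 0.0107 to 0.208, and it was lost without any 1 of the 6 libraries (adjusted p 0.0605 to 0.165). The call in UM-SCC-47 held in 16 of 16. In UM-SCC-47 the setting without the 3 libraries of the steepest GC trends is the fit without JQ1 replicate 3. The 16 settings of that line hold this fit under both names.

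DUSP4 is a nuclear phosphatase of ERK and of other MAP kinases (GRCh37 chromosome 8, 29190581 to 29208201, minus strand). In UM-SCC-47 it stood at 19.7, 19.9 and 17.4 CPM with DMSO and at 37.4, 34.8 and 32.1 CPM with JQ1. In UPCI-SCC-090 it stood at 2.16, 3.15 and 2.49 CPM with DMSO and at 0.327, 0.532 and 0.115 CPM with JQ1. Every JQ1 library of UM-SCC-47 was thus above every DMSO library, and every JQ1 library of UPCI-SCC-090 below. On the log2 scale the change was 0.86 (SE 0.14, adjusted p = 0.00419) in UM-SCC-47 and -3.15 (SE 0.47, adjusted p = 0.00529) in UPCI-SCC-090. The low JQ1 values rested on 9, 11 and 3 estimated counts. The rise in UM-SCC-47 held in 15 of 16 alternative settings and was lost in 1 fit over all 12 libraries (adjusted p = 0.0945).

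DUSP5, a nuclear phosphatase of ERK, lies at GRCh37 chromosome 10, 112257665 to 112271291, on the plus strand. In UM-SCC-47 its level was 15.3, 17 and 15.1 CPM with DMSO and 18.2, 20.2 and 13.2 CPM with JQ1. In UPCI-SCC-090 its level was 1.7, 2.06 and 1.65 CPM with DMSO and 2.25, 3.1 and 1.96 CPM with JQ1. The groups overlapped in both lines. Its log2 fold change was 0.11 (SE 0.20, adjusted p = 0.693) in UM-SCC-47, with the opposite sign (-0.15) when scaled by library size alone. It was 0.31 (SE 0.27, adjusted p = 0.453) in UPCI-SCC-090, where a correction of each library for its GC trend gave 0.82 (adjusted p = 0.0181).

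SPRED2 fell in both lines (GRCh37 chromosome 2, 65537985 to 65659771, minus strand). In UM-SCC-47 it stood at 20.4, 21.1 and 20.1 CPM with DMSO and at 12.9, 11.5 and 10.4 CPM with JQ1. In UPCI-SCC-090 it stood at 81.6, 95.4 and 75.2 CPM with DMSO and at 22.6, 30.6 and 21.3 CPM with JQ1. The log2 fold change was -0.84 (SE 0.15, adjusted p = 0.00611) in UM-SCC-47 and -1.88 (SE 0.23, adjusted p = 0.00407) in UPCI-SCC-090. No group overlapped another, and both calls held in 16 of 16 alternative settings.

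SPRED1, whose germline loss causes a disorder that resembles neurofibromatosis, varied widely between replicates (GRCh37 chromosome 15, 38545037 to 38649450, plus strand). Its values in UM-SCC-47 were 13.2, 9.03 and 14.3 CPM with DMSO and 4.38, 2.98 and 7.74 CPM with JQ1. Its values in UPCI-SCC-090 were 50, 12.7 and 36.9 CPM with DMSO and 23, 4.99 and 41.5 CPM with JQ1. The UPCI-SCC-090 groups overlapped over most of their range, with replicate 2 lowest in both. SPRED1 has the lowest GC content of the 10 genes, 36.5% against up to 60.1% in ETV4, and both replicate 2 libraries of this line had a positive GC trend (0.68 and 0.45). The part of that trend in the replicate 2 values was not tested. JQ1 changed it by a log2 value of -1.29 (SE 0.39, adjusted p = 0.0381) in UM-SCC-47 and -0.55 (SE 0.87, adjusted p = 0.698) in UPCI-SCC-090. With a correction for GC content the 2 values were -1.55 (adjusted p = 0.00337) and -0.68 (adjusted p = 0.155). The call in UM-SCC-47 held in 10 of 16 alternative settings, and it was lost without any 1 of 5 of the 6 libraries, the exception being JQ1 replicate 3 (adjusted p of the 5: 0.0537 to 0.123).

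SPRY4 (GRCh37 chromosome 5, 141689992 to 141706020, minus strand) was a gene of low level in UM-SCC-47. It stood there at 1.85, 2.33 and 1.66 CPM with DMSO and at 1.67, 1.12 and 1.47 CPM with JQ1, with overlap of the groups. In UPCI-SCC-090 it stood at 7.52, 11.8 and 8.72 CPM with DMSO and at 1.67, 2.9 and 1.46 CPM with JQ1, with no overlap. The JQ1 libraries of UPCI-SCC-090 thus reached the level of the DMSO libraries of UM-SCC-47. The log2 fold change was -0.46 (SE 0.24, adjusted p = 0.177) in UM-SCC-47 and -2.35 (SE 0.35, adjusted p = 0.00521) in UPCI-SCC-090. The latter call was lost in 1 of 16 alternative settings, the fit without JQ1 replicate 1 (adjusted p = 0.0575).

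SPRY2, like SPRY4, binds signaling adaptors near the receptors (GRCh37 chromosome 13, 80910111 to 80915261, minus strand). In UM-SCC-47 its level was 7.78, 7.26 and 7.02 CPM with DMSO and 10.3, 10.1 and 8.09 CPM with JQ1. In UPCI-SCC-090 its level was 28.5, 35.2 and 30.2 CPM with DMSO and 17.7, 21.5 and 16.4 CPM with JQ1. The groups did not overlap in either line, and the JQ1 libraries were on opposite sides. SPRY2 had a log2 fold change of 0.36 (SE 0.17, adjusted p = 0.149) in UM-SCC-47 and -0.87 (SE 0.24, adjusted p = 0.0399) in UPCI-SCC-090. In UM-SCC-47 SPRY2 passed in 4 of 16 alternative settings, among them the fit without JQ1 replicate 3 (0.59, adjusted p = 0.0352). That fit is also the setting without the 3 libraries of the steepest GC trends and is counted under both. The call in UPCI-SCC-090 held in 5 of 16, with adjusted p from 0.00889 to 0.438, and was lost without any 1 of the 6 libraries (adjusted p 0.0637 to 0.349).

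ETV4 showed the deepest fall of the 10 genes in both lines (GRCh37 chromosome 17, 41605212 to 41656988, minus strand). In UM-SCC-47 its level was 9.5, 9.67 and 9.2 CPM with DMSO and 0.186, 0.45 and 0.253 CPM with JQ1, the latter from 5, 8 and 5 estimated counts. In UPCI-SCC-090 it was 27.9, 53.5 and 44.9 CPM with DMSO and 5.16, 4.36 and 2.69 CPM with JQ1. The JQ1 libraries lay far below the DMSO libraries in each line. Log2 fold changes were -5.03 (SE 0.33, adjusted p = 0.000216) in UM-SCC-47 and -3.48 (SE 0.38, adjusted p = 0.0037) in UPCI-SCC-090. Both calls held in 16 of 16 alternative settings.

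ETV5, the close relative of ETV4, lies at GRCh37 chromosome 3, 185764103 to 185828107, on the minus strand. In UM-SCC-47 it stood at 5.13, 5.15 and 4.76 CPM with DMSO and at 6.91, 8.49 and 6.17 CPM with JQ1. In UPCI-SCC-090 it stood at 113, 189 and 169 CPM with DMSO and at 79.5, 96 and 59.7 CPM with JQ1. The JQ1 libraries were all higher in UM-SCC-47 and all lower in UPCI-SCC-090. The log2 fold change was 0.50 (SE 0.19, adjusted p = 0.0732) in UM-SCC-47, which did not pass the test, and -1.12 (SE 0.23, adjusted p = 0.015) in UPCI-SCC-090. In UM-SCC-47 it passed in 5 of 16 alternative settings, among them the fit without JQ1 replicate 3 (0.73, adjusted p = 0.0264), again counted under both of its settings. The call in UPCI-SCC-090 held in 7 of 16 alternative settings, with adjusted p from 0.00853 to 0.292. It was lost without DMSO replicate 2, DMSO replicate 3, JQ1 replicate 1 or JQ1 replicate 3 (adjusted p 0.0648 to 0.155).

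ETV1, an oncogenic factor in prostate and stromal tumors, lies at GRCh37 chromosome 7, 13930854 to 14031050, on the minus strand. Its level in UM-SCC-47 was 1.31, 0.94 and 1.27 CPM with DMSO and, near the limit of detection, 0.223, 0 and 0.303 CPM with JQ1. The value of 0 allows up to 0.169 CPM (3 counts), for counting error only. In UPCI-SCC-090 it stood at 30.7, 11.6 and 31.2 CPM with DMSO and at 6.73, 2.61 and 10.2 CPM with JQ1. No JQ1 library reached a DMSO library of its line. ETV1 had a log2 fold change of -2.66 (SE 0.63, adjusted p = 0.016) in UM-SCC-47 and -1.96 (SE 0.68, adjusted p = 0.0785) in UPCI-SCC-090. The call in UM-SCC-47 was lost without DMSO replicate 1, DMSO replicate 3 or JQ1 replicate 1 (adjusted p 0.0554 to 0.0604). ETV1 is an AT-rich gene (38.8% GC), and in UPCI-SCC-090 a correction for GC content gave -2.08 (adjusted p = 0.00065), 1 of the 8 of 16 alternative settings in which ETV1 passed there. The study holds ETV1 in a core set that it chose on these libraries, so its fall is not independent evidence of that set's direction.

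Whether the lines responded differently was tested as the difference of their log2 fold changes, UPCI-SCC-090 minus UM-SCC-47, in 1 fit over the 12 libraries. DUSP4, SPRY4 and ETV5 were lower in UPCI-SCC-090 by this test, 3 of 10 members beside 3.63% of 14396 genes, and 0 of 10 were higher beside 2.93%. At an unadjusted p under 0.05 edgeR gave 1 higher member (ETV4), and DESeq2 called 0. DUSP4 differed by -3.88 (SE 0.55, adjusted p = 0.00192), and this call held in 21 of 21 alternative settings. SPRY4 differed by -1.77 (SE 0.47, adjusted p = 0.046), a call kept in 10 of 21 settings, and ETV5 by -1.52 (SE 0.35, adjusted p = 0.0263), a call kept in 12 of 21. SPRY2 (-1.12, SE 0.32, adjusted p = 0.0634), SPRED2 (-0.93, SE 0.30, adjusted p = 0.0977) and ETV4 (1.64, SE 0.53, adjusted p = 0.0977) did not pass. With a correction for GC content all 3 passed, at adjusted p of 0.0009, 0.00276 and 0.004, so that 5 members were lower and 1 was higher. DUSP6 (0.07, SE 0.35), DUSP5 (0.31, SE 0.38), ETV1 (0.75, SE 0.95) and SPRED1 (0.75, SE 0.95) did not pass either (adjusted p 0.754 to 0.966), and the last 2 carry errors that leave large differences possible. The values for DUSP6 and DUSP5 changed sign in some settings. The count of lower members was 1 without UM-SCC-47 DMSO replicate 1, 2 or 3, UM-SCC-47 JQ1 replicate 1, UPCI-SCC-090 DMSO replicate 2 or UPCI-SCC-090 JQ1 replicate 1. It was 5 without UM-SCC-47 JQ1 replicate 3 or UPCI-SCC-090 JQ1 replicate 2.

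**Figure D2:**
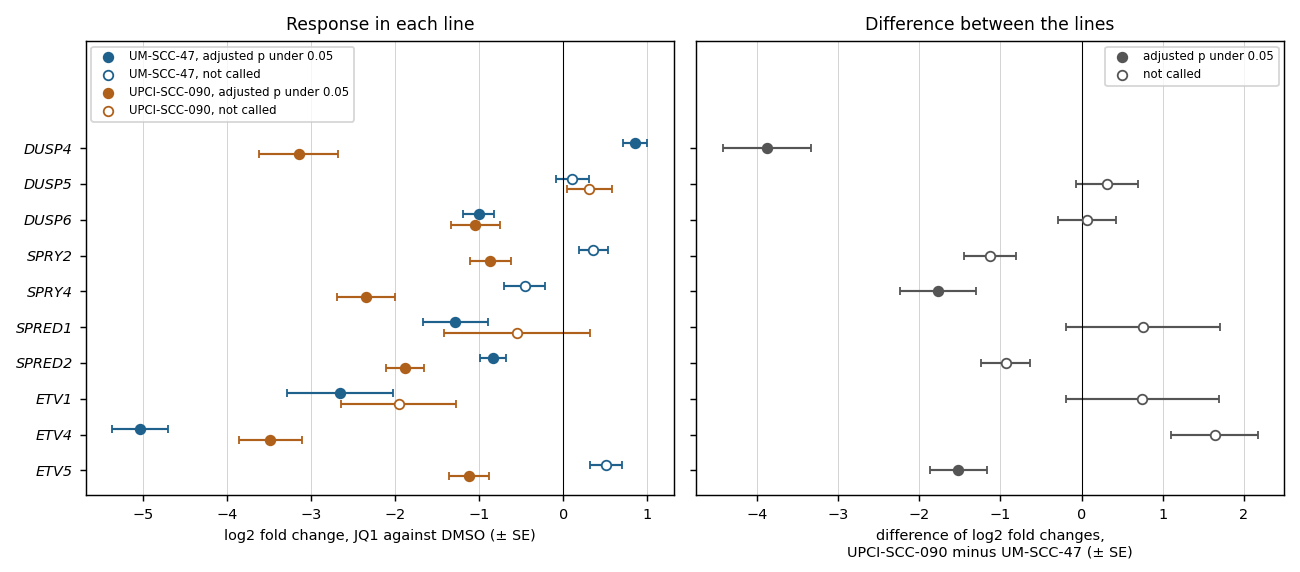
Log2 fold change of JQ1 against DMSO in each line (left) and the difference of these fold changes, UPCI-SCC-090 minus UM-SCC-47 (right), with standard errors as bars; filled points passed edgeR's test at an adjusted p under 0.05. DUSP6 lay at -1.01 and -1.05 in the 2 lines, whereas DUSP4 lay at 0.86 and -3.15.

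The untreated lines set these genes at different levels. With DMSO, 7 of 10 members were higher in UPCI-SCC-090 (23.3% of 14396 genes were) and 2 of 10 were lower (19.9% were). The higher genes were DUSP6, SPRY2, SPRY4, SPRED2, ETV1, ETV4 and ETV5, and the lower were DUSP4 and DUSP5. ETV5 differed most, by a log2 difference of 4.97 (SE 0.29, adjusted p = 2.31e-07), followed by ETV1 at 4.38 (SE 0.70, adjusted p = 0.000344). DUSP6 differed by 2.66, SPRY4 by 2.26, ETV4 by 2.15, SPRY2 by 2.09 and SPRED2 by 2.04 (adjusted p 8.93e-06 to 0.00047). DUSP5 differed by -3.13 (SE 0.29, adjusted p = 4.86e-06) and DUSP4 by -2.87 (SE 0.38, adjusted p = 8.14e-05). SPRED1 did not pass, at 1.45 (SE 0.68, adjusted p = 0.109). These 9 calls held in 21 of 21 alternative settings, and SPRED1 passed in 5 of 21. This comparison uses the same DMSO libraries as the JQ1 comparisons, and, as each line is a single tumor, line and donor cannot be told apart.

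In order of mean level over the 4 groups, DUSP6, SPRED2 and ETV1 ran from UPCI-SCC-090 DMSO over UPCI-SCC-090 JQ1 and UM-SCC-47 DMSO to UM-SCC-47 JQ1, with no overlap between neighbors in that order. SPRY4 and SPRED1 had the same order of means, but SPRY4 overlapped between UPCI-SCC-090 JQ1, UM-SCC-47 DMSO and UM-SCC-47 JQ1, and SPRED1 overlapped at every step but the last. SPRY2 and ETV5 also had both UPCI-SCC-090 groups above both UM-SCC-47 groups, but with UM-SCC-47 JQ1 above UM-SCC-47 DMSO and no overlap between neighbors. ETV4 was the gene whose 2 JQ1 groups were both below the 2 DMSO groups. DUSP4 and DUSP5 had both UM-SCC-47 groups on top, and DUSP5 overlapped between the treatments within each line.

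Levels of different genes were compared per kb of the canonical transcript. With DMSO, the PEA3 sum was 5.46 ± 0.14 CPM per kb (SD, n = 3) in UM-SCC-47 and 60.3 ± 14 CPM per kb (SD, n = 3) in UPCI-SCC-090. ETV4 made up 74.2% ± 0.53 (SD, n = 3) of that sum in UM-SCC-47 with DMSO and 6.46% ± 2 (SD, n = 3) with JQ1, where ETV5 made up 92% ± 1.5 (SD, n = 3). In UPCI-SCC-090 ETV5 already made up 63.6% ± 1.4 (SD, n = 3) with DMSO and 87% ± 3.7 (SD, n = 3) with JQ1. The PEA3 mRNA left under JQ1 was thus mostly ETV5 in both lines. The sum of the 3 DUSP genes with DMSO was 11.8 ± 0.56 CPM per kb (SD, n = 3) in UM-SCC-47 and 13.8 ± 2.1 CPM per kb (SD, n = 3) in UPCI-SCC-090. DUSP6 was 17% ± 1.3 (SD, n = 3) of that sum in UM-SCC-47 and 91.1% ± 2.8 (SD, n = 3) in UPCI-SCC-090. With JQ1 the DUSP sum was 14.2 ± 1.8 CPM per kb (SD, n = 3) in UM-SCC-47 and 7.69 ± 1.7 CPM per kb (SD, n = 3) in UPCI-SCC-090. In the SPRY and SPRED group SPRED2 had the largest share with DMSO, 46.2% ± 2.3 (SD, n = 3) in UM-SCC-47 and 47.9% ± 3.5 (SD, n = 3) in UPCI-SCC-090. With JQ1 the largest share was that of SPRY2, 53.9% ± 4.6 (SD, n = 3) and 47.2% ± 6.9 (SD, n = 3). These shares are descriptions, and they were not tested.

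**Figure D3:**
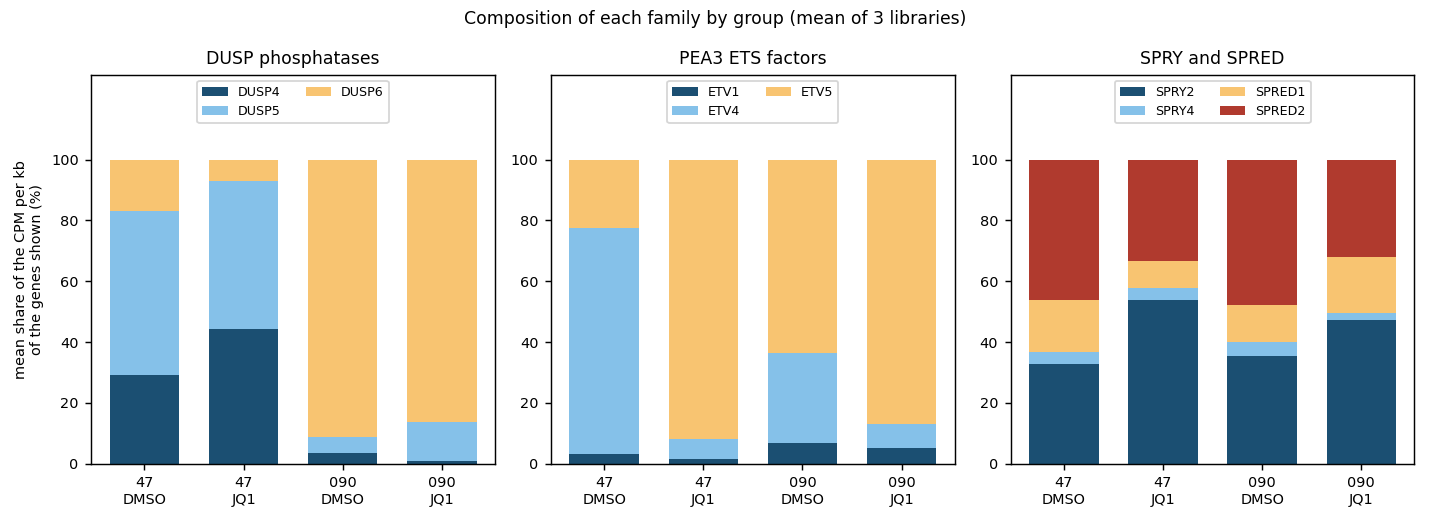
Mean share of each gene in the CPM per kb of its family (%), stacked to 100 for the 4 groups (47, UM-SCC-47; 090, UPCI-SCC-090; means of 3 libraries). DUSP6 made up 17% of the DUSP bar in UM-SCC-47 with DMSO and 91.1% in UPCI-SCC-090, and ETV5 made up 92% and 87% of the PEA3 bar with JQ1.

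The rest of the pathway was read from 6 lists, each described by counts and medians. Over all genes tested, 25.5% fell and 16.1% rose in UM-SCC-47, and 20.4% fell and 7.67% rose in UPCI-SCC-090. Of 20 genes from the adaptors over RAS, RAF, MEK and ERK to RSK, 1 fell and 2 rose in UM-SCC-47, and 1 fell and 0 rose in UPCI-SCC-090, all below the shares over all genes. The median log2 fold changes of this list were 0.17 and -0.03. MAPK3, which encodes ERK1, fell in both lines, by 1.50 on the log2 scale (SE 0.15, adjusted p = 0.000735) in UM-SCC-47 and by 1.55 (SE 0.30, adjusted p = 0.012) in UPCI-SCC-090. Its level was 71.7 to 90.7 CPM with DMSO and 25.5 to 32 CPM with JQ1 in UM-SCC-47, and 58.9 to 113 and 23.4 to 44.3 CPM in UPCI-SCC-090. RPS6KA2, a RSK kinase downstream of ERK, rose by 1.90 on the log2 scale (SE 0.16, adjusted p = 0.000415) in UM-SCC-47, and was at 0.48 (adjusted p = 0.302) in UPCI-SCC-090. In UPCI-SCC-090 RPS6KA2 passed in 2 of 16 alternative settings, with 0.98 (adjusted p = 0.00185) after the GC correction. The fall of MAPK3 in UPCI-SCC-090 was lost in 5 of 16 alternative settings.

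Of 17 receptors and ligands, 16 were tested in each line, of which 7 fell and 3 rose in UM-SCC-47 and 4 fell and 1 rose in UPCI-SCC-090, the latter near the shares over all genes. The medians were -0.89 and -0.83. FGFR2, an FGF receptor, fell by 1.00 on the log2 scale (SE 0.12, adjusted p = 0.00137) in UM-SCC-47 and by 1.24 (SE 0.17, adjusted p = 0.0046) in UPCI-SCC-090. FGFR1 rose by 2.77 (SE 0.15, adjusted p = 0.000138) in UM-SCC-47, from 9.6 to 11.5 CPM to 65.5 to 81.3 CPM, and was at -0.36 (adjusted p = 0.517) in UPCI-SCC-090. FGFBP1, which releases FGFs from the matrix, fell by 4.63 (SE 0.27, adjusted p = 0.000153) in UM-SCC-47 and by 1.02 (SE 0.30, adjusted p = 0.0477) in UPCI-SCC-090. HBEGF, a ligand of EGFR, rose by 2.34 (adjusted p = 0.00116) and 1.14 (adjusted p = 0.0477). EGFR fell by 0.95 (SE 0.30, adjusted p = 0.0462) in UM-SCC-47 and was at -1.16 (SE 0.54, adjusted p = 0.163) in UPCI-SCC-090. The calls of HBEGF and FGFBP1 in UPCI-SCC-090 were lost in 10 and 11 of 16 alternative settings, that of FGFR2 there in 3, and that of EGFR in UM-SCC-47 in 6 of 16. EGFR passed in UPCI-SCC-090 in 1 of 16.

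The other 7 DUSP phosphatases of MAP kinases had 4 falls and 1 rise in UM-SCC-47 and 3 falls and 0 rises in UPCI-SCC-090, with medians of -0.64 and -0.86. Over all genes, 25.5% fell and 16.1% rose in UM-SCC-47, and 20.4% and 7.67% in UPCI-SCC-090. DUSP1, an immediate early phosphatase, rose by 2.07 (SE 0.16, adjusted p = 0.000326) in UM-SCC-47, from 16.5 to 19.6 CPM to 65.6 to 88.9 CPM, and was at 0.74 (SE 0.34, adjusted p = 0.158) in UPCI-SCC-090. There DUSP1 passed in 3 of 16 alternative settings, with 1.25 (adjusted p = 0.00101) after the GC correction. DUSP9 fell by 1.86 (SE 0.24, adjusted p = 0.0017) in UM-SCC-47. In UPCI-SCC-090 it also fell, from 1.66 to 3.76 CPM with DMSO to 0 to 0.291 CPM with JQ1 (adjusted p = 0.0113), levels too low for a firm fold change. DUSP16, which acts on JNK and p38, fell by 1.32 (SE 0.23, adjusted p = 0.00812) in UPCI-SCC-090 and was at -0.27 (adjusted p = 0.212) in UM-SCC-47. Among 13 other brakes tested of 14 listed, 2 fell and 2 rose in UM-SCC-47 and 3 fell and 0 rose in UPCI-SCC-090, with medians of 0.03 and -0.22. SPRY1, another Sprouty gene, fell by 1.58 (SE 0.31, adjusted p = 0.00822) in UM-SCC-47, where it stood at 2.36 to 2.71 CPM with DMSO. In UPCI-SCC-090 SPRY1 fell by 1.88 (SE 0.26, adjusted p = 0.00488) from 25.3 to 26.3 CPM. IL17RD, an antagonist of FGF signaling, fell by 2.71 (SE 0.43, adjusted p = 0.00627) in UPCI-SCC-090 and was at -0.21 (adjusted p = 0.576) in UM-SCC-47. CBL, a ubiquitin ligase of receptors, fell by 0.52 (SE 0.12, adjusted p = 0.0136) in UM-SCC-47, and PEA15, which holds ERK in the cytoplasm, rose there by 1.46 (SE 0.15, adjusted p = 0.000689). In UPCI-SCC-090 CBL was at -0.60 (adjusted p = 0.143) and PEA15 at 0.58 (adjusted p = 0.116). CBL passed there in 2 of 16 alternative settings and PEA15 in 3, with 0.90 (adjusted p = 0.00199) for PEA15 after the GC correction. The call of CBL in UM-SCC-47 was lost in 6 of 16 alternative settings, and in UPCI-SCC-090 those of DUSP16 in 2 and SPRY1 in 1. DUSP16 passed in UM-SCC-47 in 1 of 16.

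Of 13 other output genes of ERK 11 were tested, of which 4 fell and 3 rose in UM-SCC-47 and 3 fell and 3 rose in UPCI-SCC-090, with medians of -0.26 and 0.20. The shares over all genes were 25.5% lower and 16.1% higher in UM-SCC-47, and 20.4% and 7.67% in UPCI-SCC-090. EGR1, an immediate early factor, fell by 3.80 on the log2 scale (SE 0.17, adjusted p = 0.000129) in UM-SCC-47, from 12.9 to 13.8 CPM to 0.955 to 0.966 CPM, and was at 0.07 (SE 0.35, adjusted p = 0.911) in UPCI-SCC-090. FOS fell by 1.48 (SE 0.25, adjusted p = 0.00462) in UM-SCC-47 and rose by 2.85 (SE 0.30, adjusted p = 0.0037) in UPCI-SCC-090. IER3 rose by 1.30 (adjusted p = 0.00339) and 1.11 (adjusted p = 0.02). CCND1, the gene of cyclin D1, fell by 1.43 (SE 0.28, adjusted p = 0.0117) in UPCI-SCC-090 and was at -0.26 (adjusted p = 0.149) in UM-SCC-47. PHLDA1 passed in neither line (-0.46 and -1.15, adjusted p = 0.0558 and 0.126), but did so in 1 of 16 alternative settings in UM-SCC-47 and in 4 of 16 in UPCI-SCC-090, where the GC correction gave -1.22 (adjusted p = 0.00148). Among 20 ETS factors, CIC and its partners, 4 fell and 0 rose of 18 tested in UM-SCC-47, and 2 fell and 1 rose of 17 tested in UPCI-SCC-090, with medians of -0.24 and -0.43. CIC, the repressor of the PEA3 genes, fell by 2.15 (SE 0.17, adjusted p = 0.000312) in UM-SCC-47, from 31.1 to 33.2 CPM to 6.18 to 7.89 CPM. It fell by 3.62 (SE 0.48, adjusted p = 0.00446) in UPCI-SCC-090, from 68.9 to 136 CPM to 3.68 to 12.2 CPM. ELF3, an epithelial ETS factor, rose by 2.03 (SE 0.28, adjusted p = 0.00467) in UPCI-SCC-090 and was at -0.11 (adjusted p = 0.558) in UM-SCC-47. The calls of CCND1 and IER3 in UPCI-SCC-090 were lost in 5 and 4 of 16 alternative settings. Calls were gained in 1 of 16 for CCND1 and ELF3 in UM-SCC-47 and for EGR1 in UPCI-SCC-090.

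**Figure D4:**
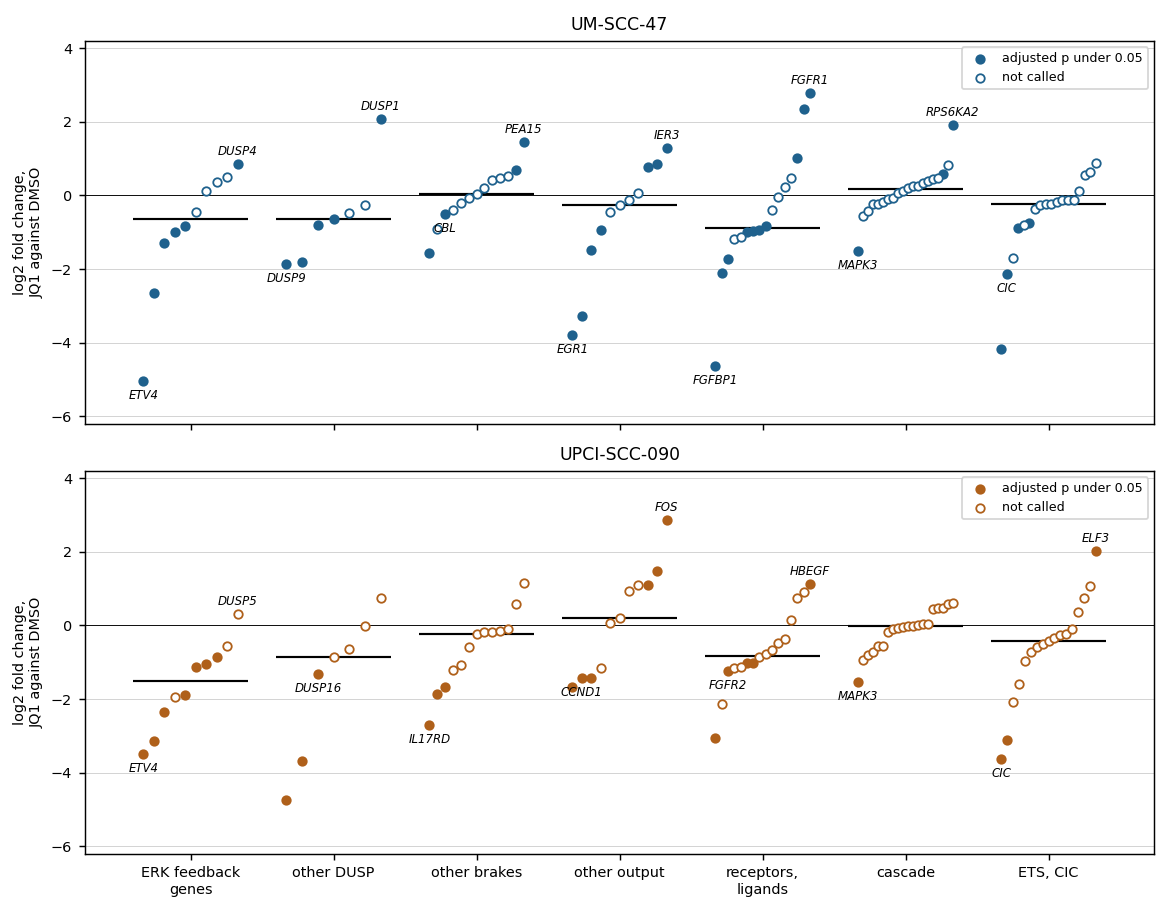
Log2 fold change of JQ1 against DMSO for the 10 ERK feedback genes and 6 other lists of the pathway in UM-SCC-47 (top) and UPCI-SCC-090 (bottom); each point is a gene in order of its value, filled points passed edgeR's test, and lines are list medians. The line of the 10 genes lies at -0.65 and -1.50, and that of the kinase chain at 0.17 and -0.03.

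DUSP6 was also compared with all 11511 genes of sufficient level by the shape of its pattern, as the root mean square difference of centered log2 CPM over the 12 libraries. The nearest genes were FGFR2 (0.22), FABP5 (0.28) and BUD13 (0.32). FGFR2 stood at 44.4 to 45.6 CPM in UM-SCC-47 with DMSO and at 274 to 297 CPM in UPCI-SCC-090. Of the other 9 members SPRED2 ranked closest (rank 229, 0.69), then SPRY2 (rank 419, 0.79) and SPRY4 (rank 825, 0.92). DUSP5 (rank 10609) and DUSP4 (rank 11056) were among the most distant. The points share libraries and depth, and the ranks describe likeness of pattern over 2 lines and 2 treatments.

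**Figure D5:**
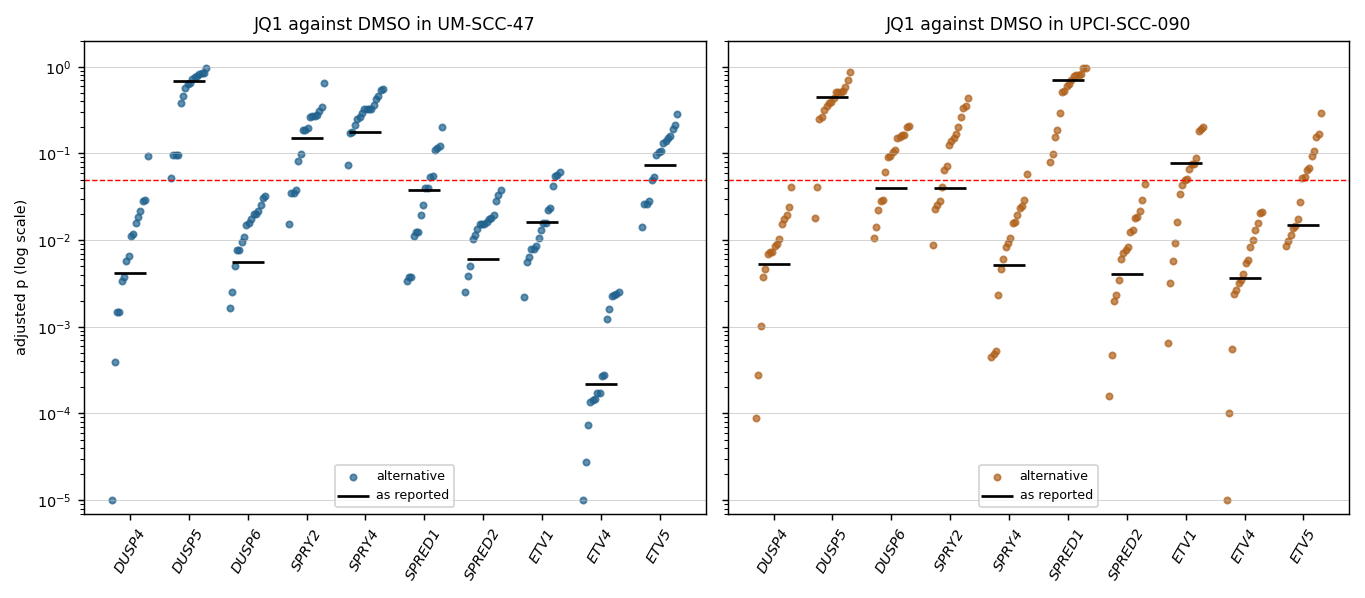
Adjusted p of each of the 10 genes for JQ1 against DMSO under 16 alternative settings (points, values under 1e-05 drawn at 1e-05) and as reported (bars), on a log axis, with the threshold of 0.05 as a dashed line. All points of ETV4, SPRED2 and DUSP6 lie under the line in UM-SCC-47, and all points of DUSP4, SPRED2 and ETV4 in UPCI-SCC-090. In UM-SCC-47 the fit without JQ1 replicate 3 is drawn under both of its settings.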

How the data were processed

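RNA of UM-SCC-47 and UPCI-SCC-090 cells was sequenced from stranded total RNA libraries, with each repeat run on 2 lanes. Per the labels and the study's methods, the values come from Salmon: the authors deposited 1 table of estimated counts, unscaled, with a column for each of the 12 libraries. Versions in the submitters' notes are 0.8.2 for Salmon and 1.28.0 for DESeq2, and the study's methods name other versions of both. For the transcript index, the sources used here give no name. Estimation divides reads among alike transcripts, so small counts are estimates.

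The estimated counts were rounded and tested with edgeR 4.0.16 (R 4.3.3). The filter on low counts was filterByExpr (minimum count 10, minimum total 15), followed by TMM scaling and the quasi-likelihood F test. JQ1 was compared with DMSO in each line separately, and the lines were compared in 1 fit over the 12 libraries. P-values were adjusted by Benjamini-Hochberg over all genes tested and called under 0.05. The SE is the absolute log2 fold change over the square root of F. Printed CPM values are scaled over the 12 libraries, whereas the fold changes of a line were scaled within it, which moved a library by up to 16.3%.

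Alternatives were RLE and upper-quartile scaling, library size alone, DESeq2 1.42.0, no filter, a block for the replicate number, a correction for GC content, 1 fit over both lines, and leaving out libraries. The edgeR fits were also run on simulated counts that held no GC trend and no pairing of replicates. That run therefore does not show how the fits behave with either. Replicates differed by more than sampling noise (chi-square per gene 8.68 to 449), and each counts as 1 sample. Gene symbols, coordinates, length and GC content came from GENCODE 44 lifted to GRCh37, which held 20015 of the 20738 IDs. PECAM1 was the 1 listed gene not matched.

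The members and the gene lists were chosen with earlier results of these data known. All 10 members are named. From each other pathway list and line, the called genes with the largest rise and fall among those at 5 CPM or more in 1 group are named. CIC, EGFR, MAPK3, DUSP1, SPRY1 and PHLDA1 are named in any case, as are the 3 genes nearest to DUSP6, and 1 further gene under this rule is not reported here.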

Additional observations from a re-analysis of the deposited data

Results flagged for a closer look

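The following genes had a JQ1 response that differed between the lines, as the difference of log2 fold changes (UPCI-SCC-090 minus UM-SCC-47) in 1 edgeR fit over the 12 libraries. Among the feedback genes, DUSP4 differed by -3.88 (SE 0.55, adjusted p = 0.00192), with every JQ1 library above every DMSO library in UM-SCC-47 and below in UPCI-SCC-090. SPRY4 differed by -1.77 (SE 0.47, adjusted p = 0.046). ETV5 differed by -1.52 (SE 0.35, adjusted p = 0.0263).

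Among the other genes of the pathway, FOS differed by 4.44 (SE 0.43, adjusted p = 0.000276), falling in UM-SCC-47 and rising in UPCI-SCC-090. EGR1 differed by 3.99 (SE 0.47, adjusted p = 0.00062) and FGFBP1 by 3.69 (SE 0.38, adjusted p = 0.000314). FGFR1 differed by -2.99 (SE 0.48, adjusted p = 0.00415). IL17RD differed by -2.38 (SE 0.51, adjusted p = 0.0176), and ELF3 by 2.26 (SE 0.38, adjusted p = 0.00577). In 21 alternative settings the SPRY4 call was kept in 10, the ETV5 call in 12 and the DUSP4 call in 21. The IL17RD call was lost in 3 of 21, and those of FOS, EGR1, FGFBP1, FGFR1 and ELF3 in 0 of 21. Groups of 3 libraries are too small for a test of single outlying libraries, so none was run.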

How the results depend on the processing

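Each value was recomputed under 16 alternative settings within a line and 21 across the lines. In UM-SCC-47 the settings without JQ1 replicate 3 and without the 3 libraries of the steepest GC trends are the same fit. Counts of settings and values in that line hold this fit under both. Of the 160 member values in UM-SCC-47, 139 kept their direction and side of the threshold, 10 lost it, 9 gained it and 2 turned. These numbers were 118, 32, 10 and 0 of 160 in UPCI-SCC-090, 170, 20, 13 and 7 of 210 for the difference of responses, and 205, 0, 5 and 0 of 210 between the lines with DMSO. The cause was not tested for any change below.

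The counts of members called were as follows. In UM-SCC-47, 1 member was higher, against 2 with RLE scaling, 3 with the GC correction (with or without the replicate block), 0 in 1 fit over all 12 libraries and 3 without the 3 libraries of the steepest GC trends. The last of these is the fit without JQ1 replicate 3. Leaving out 1 library gave 3 to 5 lower and 1 to 3 higher members. In UPCI-SCC-090, 7 members were lower, against 4 with RLE scaling or no filter on low counts and 5 with upper-quartile scaling or DESeq2. That count was 3 to 5 without 1 library and 5 without the 3 libraries. It was 8 with library size alone, the replicate block, the GC correction (with or without the block) and 1 fit over all 12 libraries. The GC correction gave 1 higher member there (with or without the block). Of the differences of responses, 3 were lower, against 1 with RLE scaling, 5 with library size alone, 5 with the GC correction (with or without the block), 1 without the 3 libraries and 1 to 5 without 1 library. The GC correction also gave 1 higher difference, with or without the block.

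Signs turned where values were small. DUSP5 in UM-SCC-47 was -0.15 with library size alone and -0.012 to 0.40 without 1 library, and its difference of responses was -0.024 to 0.45 without 1 library. For DUSP6 this difference was -0.085 with the GC correction (-0.079 with the block) and -0.13 to 0.22 without 1 library. IL17RD in UM-SCC-47 was -0.32 to 0.0038 without 1 library. EGR1 in UPCI-SCC-090 was -0.13 with library size alone and -0.10 to 0.37 without 1 library. FGFR1 there was 0.052 with the GC correction, 0.028 with the block added, 0.25 without the 3 libraries and -0.68 to 0.056 without 1 library. ELF3 in UM-SCC-47 was 0.042 with RLE scaling, 0.042 with DESeq2, 0.14 with the GC correction, 0.14 with the block added, 0.12 without the 3 libraries and -0.21 to 0.12 without 1 library.

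Same-numbered deviations correlated at -0.147, 0.199 and 0.429 in UM-SCC-47 and at 0.0954, 0.789 and 0.207 in UPCI-SCC-090. Differently numbered pairs ran from -0.353 to 0.284 in UM-SCC-47 and from -0.851 to 0.793 in UPCI-SCC-090. The numbers thus paired the libraries in part at most, and the main test used no block. A replicate block lowered edgeR's common coefficient of variation between replicates from 31.6% to 27.6% in UM-SCC-47 and from 47% to 34.4% in UPCI-SCC-090. With the replicate block, 5 members were lower and 1 higher in UM-SCC-47, 8 lower and 0 higher in UPCI-SCC-090, and 3 differences were lower. The block across the lines, chosen after seeing the data, gave 2 lower and 8 higher members with DMSO. Over all genes, the GC correction raised the calls of differing responses from 523 lower and 422 higher to 1455 and 1265. In UPCI-SCC-090 all lower calls ranged from 1009 to 2801 and higher calls from 371 to 1303 without 1 library, beside 2680 and 1009. Low counts limit ETV1 and ETV4 in UM-SCC-47 and DUSP4 in UPCI-SCC-090 with JQ1.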
